A study of Homo sapiens with 5 samples.

Results

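The endoplasmic reticulum (ER) folding and degradation genes are a list of 32 genes for the chaperones, disulfide enzymes, stress sensors, degradation factors and translocation channel of the ER. They were found by matching the RefSeq identifier of each entry to a current or older gene symbol. Of the 32, 27 were matched to an entry of their own among 20220 RefSeq entries, and 5 (PDIA6, TXNDC5, EIF2AK3, SYVN1 and DERL3) were not and are not analysed here. RNA was sequenced from HEK 293T, a human embryonic kidney line with SV40 T antigen, in 5 libraries depleted of ribosomal RNA. The treated group had 2 libraries from cells given 1 µM 5-aza-CdR (5-aza-2'-deoxycytidine, which traps DNA methyltransferases) for 3 days. The recovery group had 1 library from treated cells cultured for a further 30 days without the drug, and the control group had 2 libraries from cells without drug. All groups are the same line, so nothing here speaks of another cell type. The authors deposited 1 FPKM value per gene and group, that is fragments per kilobase of transcript and per unit of depth, with libraries already combined. The values therefore carry no SD, and the fragments behind each are not given, so the depth and the precision of single values are unknown. Each test below is the authors' own q-value, a p-value corrected for the number of genes, and compares either treated or recovery with control.

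Proteins that enter the ER through the SEC61 channel are folded there by chaperones such as HSPA5 (BiP) and by enzymes that form disulfide bonds. When unfolded protein builds up, the sensors ERN1 (IRE1), ATF6 and EIF2AK3 (PERK) start the unfolded protein response. ERN1 splices XBP1 mRNA into the message of a transcription factor, ATF6 is cut to release another, and EIF2AK3 slows translation while favouring that of ATF4. XBP1 and ATF6 act on chaperone and degradation genes, ATF4 on amino acid and growth genes, and proteins that fail to fold leave the ER through the HERPUD1, SEL1L and SYVN1 machinery for breakdown by the proteasome.

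Many of these genes carry the ER stress element (ERSE), to which ATF6 and XBP1 bind together with NF-Y. RefSeq promoter windows (GRCh38.p14) of 300 bases, from 250 before to 50 after the gene start, were found for 29 of the 32 genes. The full element, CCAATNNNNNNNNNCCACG on either strand, stood in the windows of 8 of these 29 (27.6%), against 25 of all 27305 genes with a window (0.0916%). The holders were HSPA5, HSP90B1, CALR, CANX, CRELD2, XBP1, ERO1B and PDIA6. The second form, ATTGGNCCACG, stood in 3 of the 29 (10.3%: HYOU1, HERPUD1 and SDF2L1), against 19 of 27305 genes (0.0696%). No window of the list held both forms. The C/EBP-ATF element of ATF4 targets, searched only as the exact letters TGATGNAAT, was in 0 of the 29 windows and in 333 of 27305 genes (1.22%). With so low a share, 0 of 29 is near the background and not a result about the list. Of 131 genes with a window in a further ER list, described below, 1 (SRPRB) held it. The ATF4 targets named below were thus not among the holders of these exact letters. Sites with other letters or outside the windows were not searched for, so this does not show that those targets lack the element. The ER stress element was defined on promoters of such genes, so its excess here is not independent evidence. A match of letters is a description of these windows and not evidence that a factor binds there. Among the 17 other genes with the full element were FICD, SERP1 and ALG12, named after the matches were seen. These 3 were picked, and the 17 also included GLRA2, NLRP4 and TRIM5. Of the 131 genes with a window in the further ER list, 0 held the full element and 0 the second form.

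The sites are shown because they are what 11 of the genes share outside the measured values. Each line reads 5′ to 3′ along the gene's own strand, with the element in capitals and up to 20 bases on each side. An element on the opposite strand therefore appears as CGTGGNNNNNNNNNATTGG, and the second form as CGTGGNCCAAT. The full element reads as follows in 5 genes.
HSP90B1, far site (chr12:103930196-103930254, plus strand): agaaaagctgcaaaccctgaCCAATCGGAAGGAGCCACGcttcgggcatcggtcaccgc
HSP90B1, near site (chr12:103930301-103930359, plus strand): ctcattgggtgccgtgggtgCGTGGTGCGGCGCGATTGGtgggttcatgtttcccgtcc
CALR (chr19:12938364-12938422, plus strand): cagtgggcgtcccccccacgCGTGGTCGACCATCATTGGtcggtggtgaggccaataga
CRELD2 (chr22:49918534-49918592, plus strand): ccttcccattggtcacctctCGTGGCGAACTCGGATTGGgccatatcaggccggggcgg
PDIA6 (chr2:10812833-10812891, minus strand): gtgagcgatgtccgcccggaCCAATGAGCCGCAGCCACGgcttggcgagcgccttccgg
ERO1B (chr1:236282163-236282208, minus strand): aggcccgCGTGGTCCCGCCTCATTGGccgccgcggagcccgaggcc
The second form reads as follows in 3 genes.
HERPUD1 (chr16:56932005-56932055, plus strand): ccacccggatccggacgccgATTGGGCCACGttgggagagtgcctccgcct
HYOU1, far site (chr11:119057360-119057410, minus strand): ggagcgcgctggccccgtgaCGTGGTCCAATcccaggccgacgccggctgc
HYOU1, near site (chr11:119057254-119057304, minus strand): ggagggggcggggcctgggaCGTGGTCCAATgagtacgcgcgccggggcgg
SDF2L1 (chr22:21642094-21642144, plus strand): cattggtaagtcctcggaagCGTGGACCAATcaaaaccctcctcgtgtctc
For the best-known target, HSPA5, and for XBP1, the gene whose level stood furthest below control in treated cells, all 250 bases before the start are given.
HSPA5 (chr9:125241344-125241593, minus strand): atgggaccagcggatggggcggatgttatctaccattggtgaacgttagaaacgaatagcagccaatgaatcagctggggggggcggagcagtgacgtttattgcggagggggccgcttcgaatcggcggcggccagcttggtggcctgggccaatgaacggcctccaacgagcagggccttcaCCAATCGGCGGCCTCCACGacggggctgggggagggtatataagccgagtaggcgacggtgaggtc
XBP1 (chr22:28800570-28800819, minus strand): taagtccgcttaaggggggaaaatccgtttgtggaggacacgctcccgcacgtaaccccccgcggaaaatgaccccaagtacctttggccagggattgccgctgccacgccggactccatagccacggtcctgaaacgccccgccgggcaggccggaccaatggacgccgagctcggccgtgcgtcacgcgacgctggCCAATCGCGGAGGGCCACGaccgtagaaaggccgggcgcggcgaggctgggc
The element began 66 bases before the start in HSPA5 and 52 bases before it in XBP1, in the same orientation, counted from the start of the window that held it. HSP90B1 held 2 full elements and HYOU1 held 2 of the second form.

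**Figure D1:**
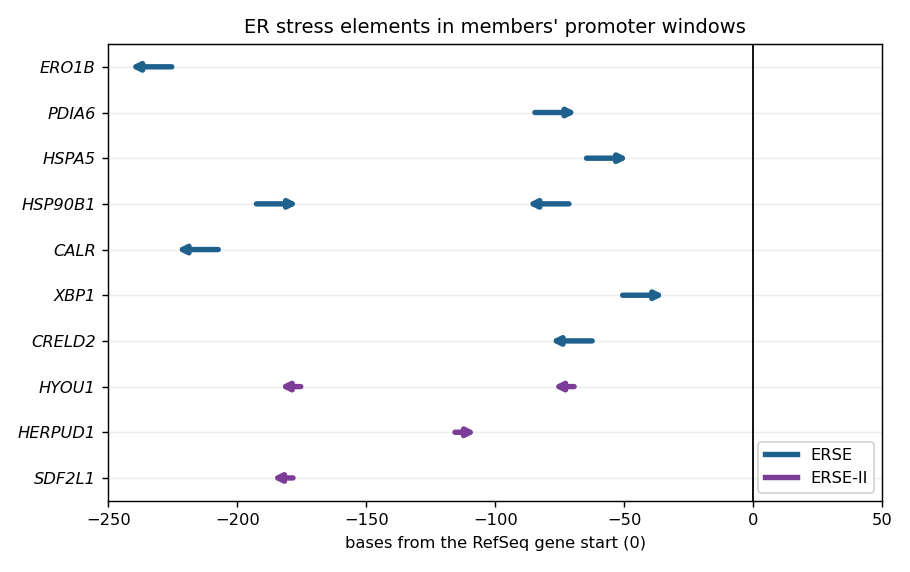
Positions of the full ER stress element (ERSE, blue) and its second form (ERSE-II, purple) in the promoter windows of 10 genes, in bases from the RefSeq gene start; arrows point along the element's strand. CANX is left out because its several starts place 1 site at several distances, from 9 to 189 bases. Distances are counted from the start of the window that held the site, and a gene can have more than 1 window. Among the 10 genes shown, XBP1 holds the site nearest such a start, at 52 bases.

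The list's genes differed widely in level, which FPKM allows to be compared between genes because it is scaled to length. CALR was the most abundant, at 391 FPKM in treated cells, 306 in recovery and 295 in control. HSP90B1 and CANX came next in treated cells, at 315 and 278 FPKM. In control, CALR ranked 202 from the top among the entries matched to a symbol, with each symbol ranked once. At the other end, ERN1 was at 3.13 FPKM in treated cells, 3.95 in recovery and 2.43 in control. CRELD2 had the lowest single value, 0.900 FPKM in control. No gene of the list was listed at 0 in any group, and all 27 passed the filter of a mean of 0.5 FPKM. The 27 summed to 2010 FPKM in treated cells, 1885 in recovery and 1761 in control. By role, the 9 chaperones summed to 591 FPKM in treated cells, 455 in recovery and 477 in control. ATF6, ERN1 and XBP1 together summed to 88.7 FPKM in treated cells, 199 in recovery and 207 in control, most of it XBP1.

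**Figure D2:**
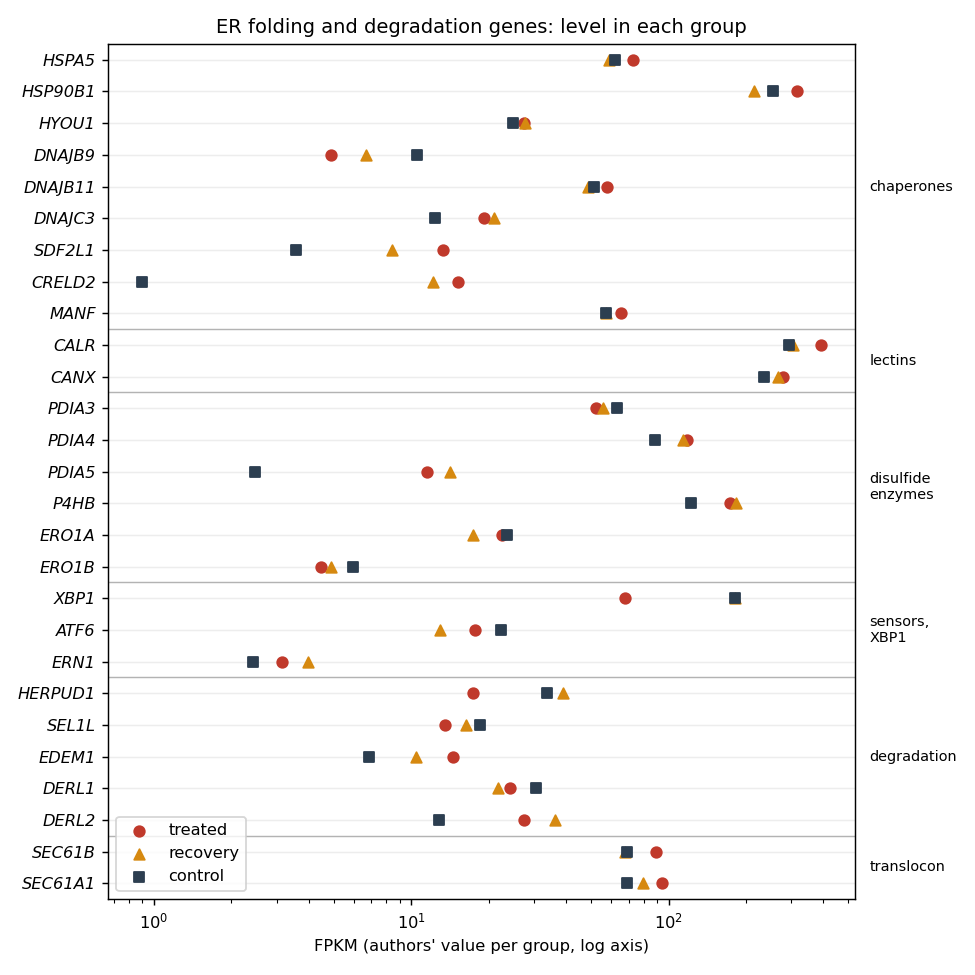
FPKM of the 27 genes with an entry (log axis), by role, in treated (red circles), recovery (orange triangles) and control (dark squares) cells; each point is the authors' 1 value per group. Most points of a gene lie close together, while XBP1 stands at 67.9 FPKM in treated cells and CRELD2 at 0.900 FPKM in control.

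In treated cells none of the folding and degradation genes passed the authors' test, and 18 of 27 lay within 1.5-fold of control on the log2(FPKM + 1) scale. Over genes whose mean reached 5 FPKM, 17 of 26 of the list lay within 1.5-fold, against 5741 of 8568 genes in all, which is a similar share. At q under 0.05, 0 of the 27 were called in the authors' deposited table, where 1.08% of 11256 genes with q under 1 were called higher and 0.275% lower. With such low shares, 0 of 27 is near the background and not a result about the list. Cuffdiff is the tool named in the submitters' processing notes, no other tool was run, and unadjusted p-values were not used here. The list's median log2 difference, on the log2(FPKM + 1) scale, was 0.24 for treated minus control, against 0.01 over the 12712 genes whose mean reached 0.5 FPKM. Treated values lay above control for 18 of the 27 and below for 9, with ERO1A alone changing sides under another scaling. Past 1.5-fold on the same scale, 6 of 27 were higher (22.2%) and 3 lower (11.1%), against 22.9% and 18.4% of all such genes. The higher were DNAJC3, SDF2L1, CRELD2, PDIA5, EDEM1 and DERL2, and the lower were DNAJB9, XBP1 and HERPUD1. Among the 26 whose mean reached 5 FPKM, 23.1% were higher and 11.5% lower, against 15.7% and 17.3% of all genes at that level. The share of higher genes was thus near the background at the lower filter and above it at the higher one, and that of lower genes was below it at both. These counts carry no test and are a description. The recovery comparison uses the same control values, so both comparisons share any error in them.

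The main chaperones stood close to control. HSPA5, the HSP70 of the ER and the usual marker of the unfolded protein response (chromosome 9, 127997127 to 128003666, hg19), was at 72.8 FPKM in treated cells, 58.8 in recovery and 61.7 in control. HSP90B1, the HSP90 of the ER, was at 315 FPKM in treated cells, 215 in recovery and 255 in control. Both were highest in treated cells, by 1.18-fold and 1.23-fold over control, with q = 0.990 and 0.986 in the authors' deposited table. HYOU1, which exchanges nucleotide on HSPA5, was at 27.3 FPKM in treated cells, 27.7 in recovery and 24.9 in control. MANF, a small secreted protein that binds HSPA5, was at 65.3 FPKM in treated cells, 56.9 in recovery and 56.9 in control. The HSPA5 partner DNAJB11 was at 57.6 FPKM in treated cells, 48.4 in recovery and 51.5 in control. These 5 genes stayed within 1.5-fold of control in both comparisons.

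Other chaperone partners stood further from control. DNAJC3 (p58IPK), which also inhibits EIF2AK3, was at 19.2 FPKM in treated cells, 21.1 in recovery and 12.3 in control. SDF2L1, which works in the HSPA5 cycle, was at 13.3 FPKM in treated cells, 8.43 in recovery and 3.58 in control. CRELD2, an ER protein made under stress, was at 15.2 FPKM in treated cells, 12.1 in recovery and 0.900 in control. In all of these 3 genes the control value was the lowest, and in none did the authors call a difference. For CRELD2 the ratio of treated to control was 16.9, with q = 0.747 for treated and 0.787 for recovery in the authors' deposited table. DNAJB9 (ERdj4), which keeps ERN1 inactive, was at 4.86 FPKM in treated cells, 6.68 in recovery and 10.5 in control. Its entry spans 12707 bases, against 4977 for the gene, and no entry was matched to the neighbouring THAP5, so the value may not be that of DNAJB9 alone.

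The lectin chaperones hold sugar-bearing proteins while they fold. CALR (calreticulin) was 1.33-fold and CANX (calnexin) 1.18-fold above control in treated cells. CANX was at 278 FPKM in treated cells, 266 in recovery and 235 in control. Recovery values of CALR and CANX were 1.04-fold and 1.13-fold of control, and both lay below control when every group was rescaled to the same FPKM sum.

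Among the disulfide enzymes, the isomerase PDIA5 stood furthest from control. It was at 11.6 FPKM in treated cells, 14.1 in recovery and 2.46 in control, 4.69-fold and 5.74-fold above control, with q = 0.823 and 0.747 in the authors' deposited table. P4HB, the main protein disulfide isomerase, was at 173 FPKM in treated cells, 182 in recovery and 122 in control. PDIA4, another isomerase, was at 118 FPKM in treated cells, 114 in recovery and 88.7 in control. PDIA3, the isomerase that works with calreticulin and calnexin, was at 52.3 FPKM in treated cells, 55.5 in recovery and 63.1 in control. Its entry spans 56180 bases, against 26841 for the gene, and no entry was matched to the neighbours ELL3 and SERF2, so the value may not be that of PDIA3 alone. For PDIA6 and TXNDC5, further isomerases, the neighbours ATP6V1C2 and BMP6 have entries of 116329 and 375818 bases for genes of 64168 and 155630, and no value was assigned to either. The oxidases that recharge these isomerases lay below control in both groups, except that ERO1A lay above it in treated cells after rescaling to the same FPKM sum. ERO1A was at 22.4 FPKM in treated cells, 17.4 in recovery and 23.6 in control, and ERO1B was at 4.45 FPKM in treated cells, 4.85 in recovery and 5.91 in control.

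XBP1 had the lowest q of the list. The gene (chromosome 22, 29190548 to 29196560, hg19) was at 67.9 FPKM in treated cells, 182 in recovery and 182 in control. Treated cells stood alone, 2.68-fold below control, while recovery was 0.998 times control. The log2 difference of treated minus control was -1.41, with q = 0.0711 in the authors' deposited table, which misses 0.05. Of 11256 genes tested, 175 (1.55%) had a lower q, and 38 of those were lower in treated cells. Among 8568 genes whose mean reached 5 FPKM, 2.01% lay as far below control. In recovery the q was 0.998, and recovery was 2.68-fold above treated cells, a difference that was not tested. The table gives 1 value for the gene and does not separate spliced from unspliced XBP1 message.

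The sensors themselves were expressed at lower levels. ATF6 was at 17.8 FPKM in treated cells, 13.0 in recovery and 22.3 in control, lowest in recovery, where it was 1.72-fold below control with q = 0.855 in the authors' deposited table. ERN1, highest in recovery, had q = 0.994 for treated and 0.963 for recovery in the authors' deposited table. EIF2AK3-AS1, the antisense neighbour of EIF2AK3, has an entry of 88857 bases for a gene of 36891, and its value was not used for EIF2AK3.

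The degradation genes went in different directions. HERPUD1, which gathers the degradation complex at the membrane (chromosome 16, 56966002 to 56977793, hg19), was at 17.4 FPKM in treated cells, 38.8 in recovery and 33.7 in control. Like XBP1 it was low in treated cells, 1.93-fold below control, and in recovery it was 2.22-fold above treated cells. The treated value had no call, with q = 0.854 in the authors' deposited table. The entry of MRPL49, a neighbour of SYVN1, spans 13905 bases for a gene of 5189, and its value was not used for SYVN1. SEL1L, the scaffold of the SYVN1 ubiquitin ligase, was at 13.6 FPKM in treated cells, 16.3 in recovery and 18.5 in control. EDEM1, which trims mannose and marks glycoproteins for disposal, was at 14.5 FPKM in treated cells, 10.4 in recovery and 6.87 in control. DERL1 and DERL2, related membrane proteins of the exit channel, differed in sign. DERL2 was at 27.5 FPKM in treated cells, 36.3 in recovery and 12.8 in control, and DERL1 was at 24.2 FPKM in treated cells, 21.7 in recovery and 30.5 in control. DERL2 was 2.14-fold above control in treated cells and 2.83-fold above it in recovery, with q = 0.925 and 0.749 in the authors' deposited table. The interval of these differences cannot be given without values per library.

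The channel itself was near control. SEC61A1, the pore subunit, was at 94.2 FPKM in treated cells, 79.7 in recovery and 69.1 in control. SEC61B, a small subunit of the same complex, was at 89.2 FPKM in treated cells, 67.6 in recovery and 69.2 in control. Both were highest in treated cells, by 1.36-fold and 1.29-fold over control.

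**Figure D3:**
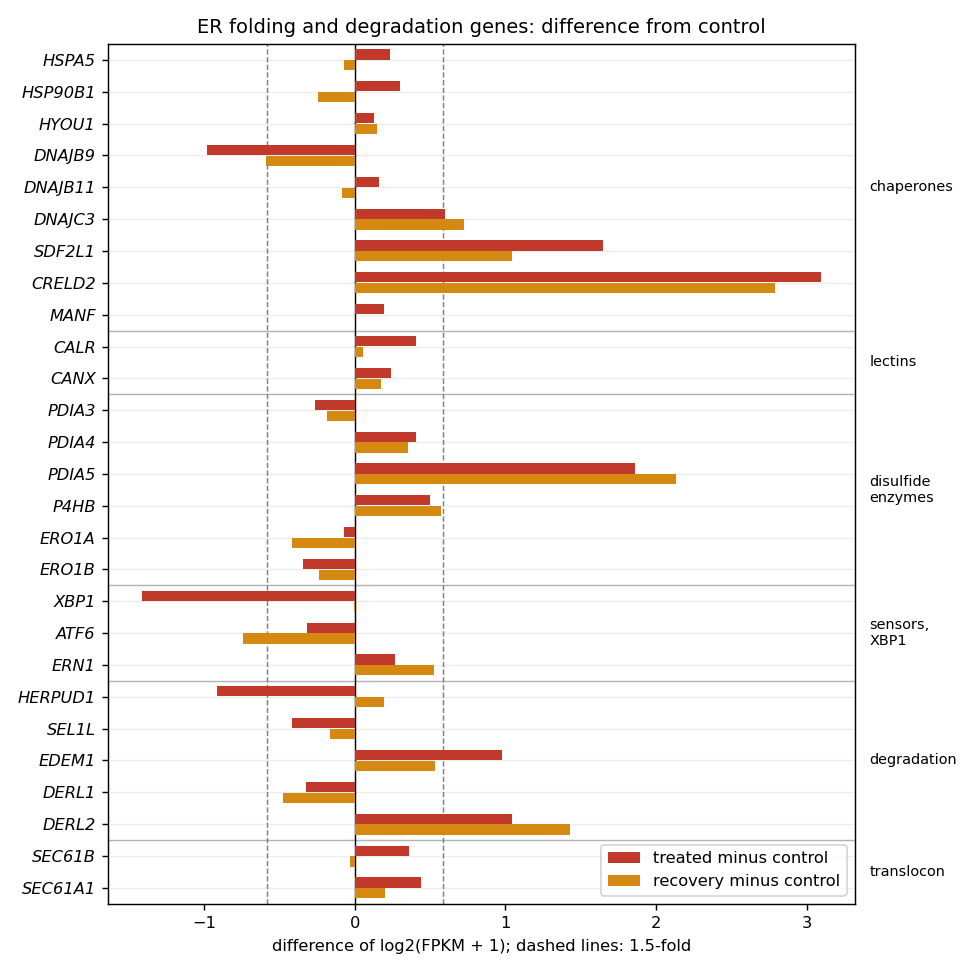
Difference of log2(FPKM + 1) from control for the 27 genes, treated minus control (red) and recovery minus control (orange), with dashed lines at 1.5-fold. XBP1 (-1.41), DNAJB9 (-0.98) and HERPUD1 (-0.91) lie past the lower line in treated cells, and CRELD2 (3.09) reaches furthest above.

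Genes with the element were found on both sides of control. In treated cells the 10 measured genes with either form of the element had log2 differences of -1.41 (XBP1) to 3.09 (CRELD2), with a median of 0.24, and 2 were past 1.5-fold higher and 2 lower. The 15 measured genes whose windows held neither form spanned -0.98 to 1.86, with a median of 0.36, and 4 were past 1.5-fold higher and 1 lower. HSPA5 and XBP1, whose promoters are printed above, hold an exact match of the same element in the same orientation and stood at 0.23 and -1.41. Only exact matches were counted, so near matches in these promoters or in other windows are not part of the comparison.

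In the cells cultured for 30 days after the drug, XBP1 and HERPUD1 were near control, and CRELD2, PDIA5, DERL2 and SDF2L1 were more than 2-fold above it. This holds for FPKM as deposited. With every group rescaled to the same FPKM sum, log2 differences were 1.84 for CRELD2, 1.44 for PDIA5, 0.95 for DERL2 and 0.55 for SDF2L1. Those of XBP1 and HERPUD1 were then -0.43 and -0.21. Of the 27 genes, 0 were called in the authors' deposited table, where 0.895% of 11174 genes with q under 1 were called higher and 0.447% lower. Here too 0 of 27 is near the background. The list's median log2 difference of recovery minus control was 0.05, against 0.00 over all genes whose mean reached 0.5 FPKM. After rescaling to the same FPKM sum it was -0.37, where the median of all genes moved by -0.31, and CALR, CANX, HERPUD1, HYOU1, PDIA4 and SEC61A1 then lay below control. Past 1.5-fold, 5 were higher (18.5%) and 2 lower (7.41%), against 20.9% and 15.7% of all such genes. Among the 26 whose mean reached 5 FPKM the shares were 19.2% and 7.69%, against 14.5% and 12.8% of all genes at that level. The 5 higher genes were DNAJC3, SDF2L1, CRELD2, PDIA5 and DERL2, and the 2 lower were DNAJB9 and ATF6. Set against treated cells, recovery was past 1.5-fold higher in 2 genes, XBP1 and HERPUD1, and lower in 1, SDF2L1, where 14.5% and 15.2% of all such genes were (12.4% and 10.4% of those whose mean reached 5 FPKM). The other 24 lay within 1.5-fold of treated cells. CRELD2, PDIA5 and DERL2, which stood above control in both groups, differed between recovery and treated cells by ratios of 0.796, 1.22 and 1.32.

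**Figure D4:**
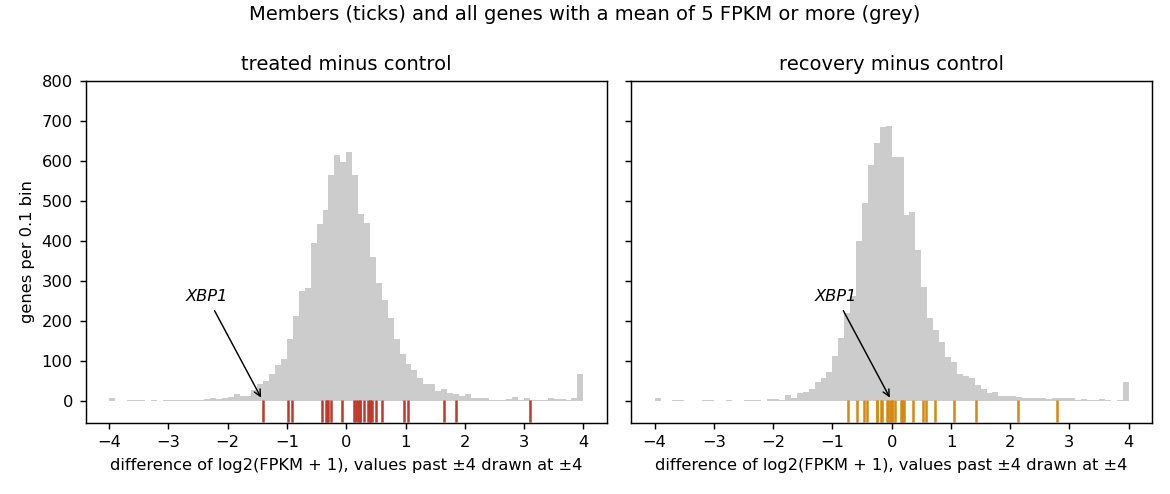
Difference of log2(FPKM + 1) from control over the 8568 genes whose mean reached 5 FPKM (grey, genes per 0.1 bin) and over the 26 genes of the list at that level (ticks), for treated (left) and recovery (right). The tick of XBP1 lies at -1.41 in treated cells and close to 0 in recovery.

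Other genes of the ER were read from a further list of 160, of which 140 had an entry. In treated cells 4 of these fell, 0 rose and 136 did not pass, and in recovery 0 of 140 were called, all in the authors' deposited table. Of all genes with q under 1, 0.275% were called lower and 1.08% higher in treated cells, and 0.447% lower and 0.895% higher in recovery. All 4 belonged to the stress signalling genes, 33 of which were measured, and all 4 are known targets of ATF4. DDIT4, which inhibits mTORC1, fell to 19.7 FPKM in treated cells, against 154 in control, and stood at 142 FPKM in recovery. ASNS, asparagine synthetase, fell to 26.4 FPKM in treated cells, against 137 in control. TRIB3, a pseudokinase, fell to 13.4 FPKM in treated cells, against 68.8 in control, and PHGDH, of serine synthesis, to 46.8 FPKM in treated cells, against 145 in control. Their q was 0.0147 for DDIT4, ASNS and TRIB3 and 0.0239 for PHGDH in the authors' deposited table. The glutathione-degrading enzyme CHAC1 was at 2.29 FPKM in treated cells, 37.2 in recovery and 33.8 in control, with q = 0.563 for treated in the authors' deposited table. STC2, a secreted glycoprotein, was at 2.18 FPKM in treated cells, 20.7 in recovery and 19.4 in control, with q = 0.0646 there. ATF4 itself, named after its value was seen, was at 217 FPKM in treated cells, 401 in recovery and 492 in control, with q = 0.253 in the authors' deposited table. Of the 31 signalling genes whose mean reached 0.5 FPKM, 13 were past 1.5-fold lower in treated cells (41.9%), against 18.4% of all such genes. Past 1.5-fold higher were 4 (12.9%), against 22.9% of all such genes, and 14 lay within 1.5-fold. The median log2 difference of the 31 was -0.44. These genes and the ER list were chosen with such values known, so the contrast between them is a description.

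**Figure D5:**
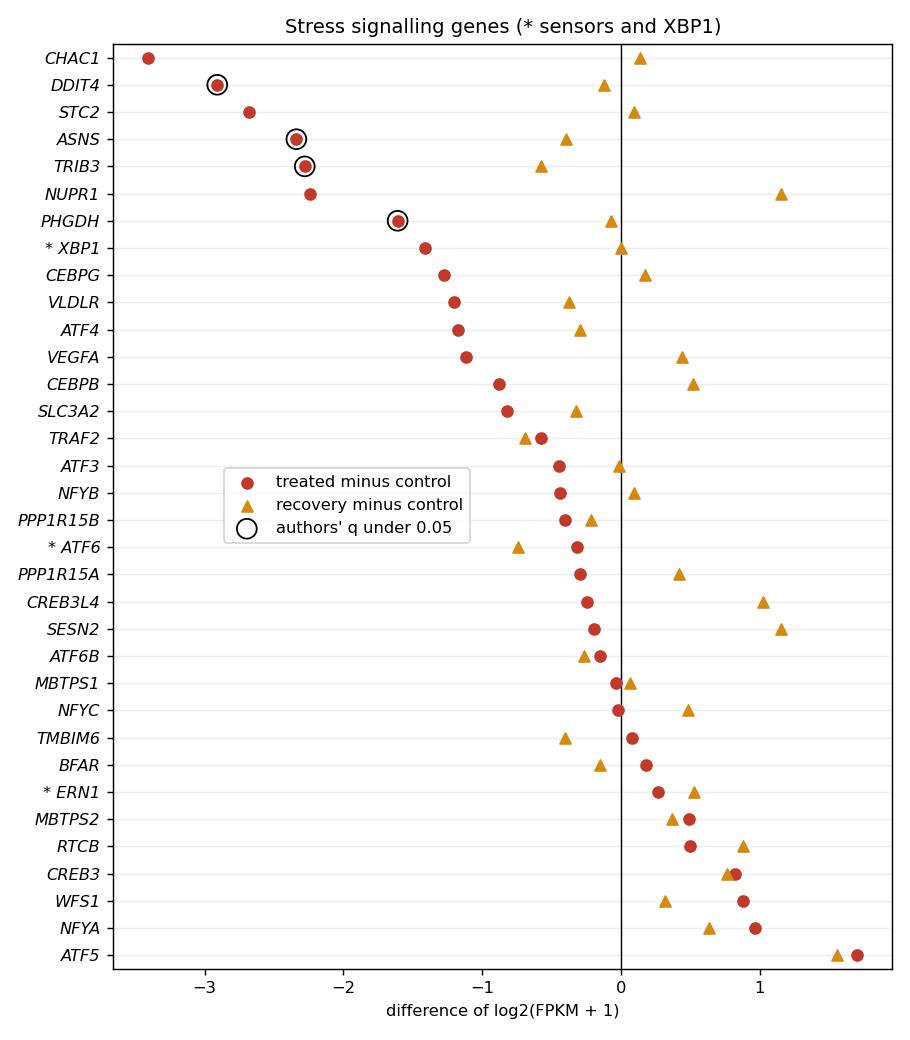
Difference of log2(FPKM + 1) from control for the stress signalling genes whose mean reached 5 FPKM, with ATF6, ERN1 and XBP1 (asterisks), for treated (red circles) and recovery (orange triangles). Rings mark the 4 calls, DDIT4, ASNS, TRIB3 and PHGDH, which lie left of XBP1 (-1.41) in treated cells.

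The lists of ER genes outside signalling had 0 calls in either comparison, which, with so few of all genes called, is near the background and not a result about them. Of 34 measured folding and disulfide enzymes, 28 reached a mean of 0.5 FPKM, with a median log2 difference of 0.08 in treated cells. Among those whose mean reached 5 FPKM, the largest differences in treated cells were in DNAJB14, a membrane-bound HSP40 (7.69 FPKM in treated cells, 15.7 in recovery, 26.6 in control), SIL1, which exchanges nucleotide on HSPA5 (9.07 FPKM in treated cells, 20.2 in recovery, 26.6 in control), and ERP29 (33.3 FPKM in treated cells, 74.2 in recovery, 72.6 in control). SIL1 and ERP29 were thus low in treated cells and nearer to control in recovery. Among 16 measured glycan and quality control genes, EDEM2, a relative of EDEM1, was at 10.7 FPKM in treated cells, 17.5 in recovery and 1.63 in control. UGGT2, a folding sensor for glycoproteins, was at 8.56 FPKM in treated cells, 9.30 in recovery and 16.6 in control. CLGN, a relative of calnexin, was at 9.83 FPKM in treated cells, 13.6 in recovery and 17.7 in control. In the degradation list of 29 measured genes, SELENOS, which binds the derlins, was at 28.1 FPKM in treated cells, 33.1 in recovery and 12.9 in control. DNAJB2, an HSP40 that hands proteins to the proteasome, was at 8.42 FPKM in treated cells, 7.04 in recovery and 3.86 in control. UBXN8, which tethers the ATPase VCP to the ER, was at 8.54 FPKM in treated cells, 10.2 in recovery and 15.0 in control. Among 28 translocation and glycosylation genes, SRPRB, of the signal recognition particle receptor, was at 31.7 FPKM in treated cells, 25.8 in recovery and 14.0 in control. SEC61A2, a second pore gene, was at 8.10 FPKM in treated cells, 5.74 in recovery and 20.04 in control, in an entry of 120950 bases for a gene of 40318. SEC62, of the translocon, was at 15.0 FPKM in treated cells, 14.3 in recovery and 26.5 in control.

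A column of the authors' deposited table marks entries for DNA methylation, and how the marks were made is not stated there. The mark was on 0 of the 27 genes, against 14.1% of all entries and 8.26% of those whose mean reached 5 FPKM. Another mark, headed high expression, was on 10 of the 27 (37.0%), against 12.8% of all entries. Among those whose mean reached 5 FPKM it was on 10 of 26 (38.5%), against 26.9% of all entries at that level. The promoter windows of the 29 genes held a median of 32 CG dinucleotides, against 14 over all genes with a window. That background includes noncoding genes and was not limited to expressed genes, so the difference may not be particular to the list.

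The 8 measured markers of HEK 293T summed to 659 FPKM in treated cells, 527 in recovery and 622 in control, most of it VIM and KRT18. Others of the 8 were near 0. PAX2 was at 0.146 FPKM in treated cells and listed at 0 in recovery and control. LHX1 was at 0.390 FPKM in treated cells, 0.966 in recovery and 1.83 in control. VIM was at 181 FPKM in treated cells, 246 in recovery and 316 in control, and KRT18 at 418 FPKM in treated cells, 214 in recovery and 231 in control. The authors called 1 of these markers, NEFM, which was at 4.79 FPKM in treated cells, 0.0924 in recovery and listed at 0 in control, with q = 0.0147 for treated in the authors' deposited table. The 7 measured markers of secretory cells rich in ER summed to 12.8 FPKM in treated cells, 10.8 in recovery and 7.16 in control. SDC1 made up this sum, at 12.8 FPKM in treated cells, 9.55 in recovery and 7.16 in control, with APOA1 at 1.22 FPKM in recovery, and MZB1, JCHAIN, PRSS1, CPA1 and ALB were listed at 0 in all groups. The 7 fibroblast markers summed to 6.02 FPKM in treated cells, 12.3 in recovery and 8.54 in control. The 8 blood markers summed to 8.62 FPKM in treated cells, 4.52 in recovery and 0.317 in control. Of these 8, 3 were listed at 0 in treated cells, 5 in recovery and 7 in control. The authors called 1 of the 8, CD68, in recovery. It was at 2.71 FPKM in treated cells, 3.43 in recovery and listed at 0 in control. Its q was 0.0863 for treated and 0.0147 for recovery in the authors' deposited table. The part of other cells in these results was not tested, and in bulk RNA fewer cells of a type and less RNA per cell cannot be told apart.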

How the data were processed

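RNA was sequenced from 5 HEK 293T libraries, grouped by their titles. Per the labels' protocols, the libraries were directional and depleted of ribosomal RNA. Cufflinks and Cuffdiff, with no versions, and the builds hg19 and mm9 are named in the submitters' processing notes, and coordinates are taken as hg19. The authors deposited 1 FPKM value per gene and group and q-values for treated and recovery against control, per the file headers. The aligner and annotation were not given in the sources used here. Labels speak of triplicate growth without tying a library to a culture, so the spread behind q may be technical. Recovery had 1 library, so the q for recovery cannot hold a spread between recovery libraries.

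Of 20221 RefSeq entries, 1 with shifted cells was left out, and 19661 of 20220 matched a symbol in NCBI's RefSeq table (GRCh38.p14). Value columns without a group numbered 0. The lncRNA table was not used. The 10 highest entries held 67.2%, 69.5% and 67.2% of summed FPKM in treated, recovery and control. Calls are the authors', at q under 0.05. Log2 differences used a pseudocount of 1 FPKM, which understates changes of low genes, and a filter of a mean of 0.5 FPKM. Genes with q of 1 may not have been tested. Entries are 1 per locus, so overlapping genes can share one.

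All 32 genes are named, with other ER genes that were called or had the 3 largest differences per list (mean of at least 5 FPKM). The members and lists were chosen with earlier results of these data known. Motifs were searched in RefSeq windows. Scripts (Python 3.11.15, pandas 2.3.3) were tested on simulated data. Other pseudocounts, filters, folds, q thresholds and scalings were tried.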

Additional observations from a re-analysis of the deposited data

How the results depend on the processing

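No paired analysis was possible because only 1 value per group was deposited, and for the same reason no library could be left out and no replicate block fitted. With q under 0.10, 1 gene of the list was called in treated cells, XBP1. With q under 0.01, 0 other ER genes were called in treated cells, as were 0 of all genes. The median log2 difference of the list in treated and recovery against control was 0.28 and 0.088 with median of ratios scaling, 0.21 and 0.02 with quantile scaling and 0.35 and -0.37 after rescaling every group to the same FPKM sum. The last setting moved the median of all genes by -0.31 in recovery. It also put 6 genes past 1.5-fold lower and 3 higher in recovery, and changed the sign of 6 genes there and of 1, ERO1A, in treated cells. Over genes whose mean reached 5 FPKM the recovery median was 0.026. Without PDIA3 and DNAJB9, an alternative chosen after seeing the data, the medians were 0.27 and 0.15, and 1 gene was lower in recovery. Median of ratios scaling also left 1 gene lower in recovery. Past 2-fold, 1 gene was lower in treated cells and 0 in recovery. The cause of these shifts was not tested. The log2 difference of XBP1 in treated cells lay between -1.42 and -1.28 in every setting tried. Fragment numbers per gene are not given, so the counting error of low values such as CRELD2 in control is unknown.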
